A study of Mus musculus with 18 samples.

Results

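The 35 genes described here encode the machinery that copies DNA: the MCM helicase and the factors that load and activate it, the sliding clamp and its loader, the polymerases and primase, the single-strand binding protein RPA, the enzymes that join Okazaki fragments, and 4 enzymes that supply deoxynucleotides. Members were found by the gene name printed in the scanner files, with the older spellings Cdc45l for Cdc45, Recc1 for Rfc1 and 4833427B12Rik for Gins2, and each gene was represented by its brightest probe. All 35 were found, among 25589 genes on the array. They were well above background on all 18 arrays.

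The study measured RNA of thymus cells from C57BL/6 mice, 2 weeks after injection of a monoclonal antibody against DLL4, the ligand through which thymic epithelium engages Notch receptors on T-cell progenitors, or of an isotype control antibody. The groups were total thymocytes with anti-DLL4 (3 samples) and with isotype control (4 samples), sorted CD4-CD8- (DN) cells with anti-DLL4 (3) and with isotype control (3), and sorted CD4-CD8-CD44+CD25- (DN1) cells with anti-DLL4 (3) and with isotype control (2). No group is labelled with a genetic change, and all mice were of 1 strain. The labels name no marker that was used to remove B cells, NK cells or myeloid cells from the sorts, and they tie no sample to an animal.

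DNA replication is licensed in G1, when ORC, Cdc6 and Cdt1 load the MCM complex onto origins, and it starts in S phase, when Cdc45 and GINS turn MCM into an active helicase. Many of these genes are transcribed in waves under E2F factors, so that their RNA is abundant in populations with many cycling cells. In the thymus, DN cells past the pre-T-cell receptor checkpoint and early CD4+CD8+ cells divide fast, and most later CD4+CD8+ cells are at rest.

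The labelled populations were checked against their surface markers, on a log2 scale relative to each array's 75th percentile. Cd8b1, a chain of CD8, averaged 3.83 in anti-DLL4 DN cells and 6.97 in control DN cells. It averaged 2.87 and 6.47 in anti-DLL4 and control DN1 cells, against 7.9 and 8.8 in anti-DLL4 and control thymocytes. Its RNA was thus lower in the CD4-CD8- sorts but not absent. Cd8a, the other chain, averaged 0.31 and 3.09 in anti-DLL4 and control DN cells. It averaged 0.45 and 4.1 in anti-DLL4 and control DN1 cells, against 5.96 and 6.86 in anti-DLL4 and control thymocytes. The Cd4 probe was dim in every group, with means between -3.9 and -1.95, and could not check the CD4- gate. Cd44, the marker of the DN1 gate, had a mean of 2.05 in the anti-DLL4 DN1 sorts and of 2.73 in the control ones, against 1.9 and 0.35 in anti-DLL4 and control DN cells and 2.78 and 0.15 in anti-DLL4 and control thymocytes, so anti-DLL4 thymocytes were no lower than the DN1 sorts. Il2ra, which encodes the CD25 that the DN1 gate leaves out, had a mean of 0.27 in anti-DLL4 DN1 sorts and of -1.45 in the control ones, against 0.81 and 1.24 in anti-DLL4 and control DN cells and -0.86 and -0.91 in anti-DLL4 and control thymocytes.

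The promoters below show the E2F motif where the licensing genes hold it, since E2F factors are known for driving such genes. They were chosen after the values were seen, as the helicase loading genes that hold an E2F motif. Promoter windows came from RefSeq (GRCm38.p6), and the 250 bases before each start were read. An entry was present for 29 of the 35 members. The motif was any of TTTCCCGC, TTTCGCGC, TTTGCCGC and TTTGGCGC on either strand, which is shown in capitals; matches can overlap each other. It was found for 6 of the 29 members (20.7%), namely Mcm5, Mcm6, Mcm7, Cdc6, Rfc3 and Pola1, against 2.16% of 27025 genes. The CCAAT box was found for 18 of the 29 (62.1%), against 37.5% of those genes. Each line gives the gene-strand sequence, 5′ to 3′, of chr8:75109259-75109508 (Mcm5, plus strand), chr1:128359706-128359955 (Mcm6, minus strand), chr5:138171884-138172133 (Mcm7, minus strand, 1 of its windows) and chr11:98907901-98908150 (Cdc6, plus strand).
Mcm5: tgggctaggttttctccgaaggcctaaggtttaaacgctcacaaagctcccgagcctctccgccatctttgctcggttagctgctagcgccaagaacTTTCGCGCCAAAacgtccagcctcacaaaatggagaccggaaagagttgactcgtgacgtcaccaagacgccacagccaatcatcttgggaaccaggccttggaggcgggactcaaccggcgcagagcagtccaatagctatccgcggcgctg
Mcm6: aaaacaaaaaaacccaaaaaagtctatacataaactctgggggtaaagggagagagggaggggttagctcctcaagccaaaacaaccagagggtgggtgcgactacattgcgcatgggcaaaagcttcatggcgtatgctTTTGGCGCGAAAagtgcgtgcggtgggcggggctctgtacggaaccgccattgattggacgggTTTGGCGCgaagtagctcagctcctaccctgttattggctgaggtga
Mcm7: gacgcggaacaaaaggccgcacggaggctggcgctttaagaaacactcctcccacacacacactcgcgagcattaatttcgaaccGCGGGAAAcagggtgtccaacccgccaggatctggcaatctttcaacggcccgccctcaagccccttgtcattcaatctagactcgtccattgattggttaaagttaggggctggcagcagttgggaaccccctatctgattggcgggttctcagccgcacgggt
Cdc6: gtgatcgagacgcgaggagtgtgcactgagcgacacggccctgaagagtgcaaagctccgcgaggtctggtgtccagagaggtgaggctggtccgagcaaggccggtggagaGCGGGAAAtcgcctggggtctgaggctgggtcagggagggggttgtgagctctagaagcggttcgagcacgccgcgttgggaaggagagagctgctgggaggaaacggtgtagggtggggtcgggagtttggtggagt
In Mcm5 and in the upstream match of Mcm6 the capitals are overlapping matches on opposite strands. A match is a run of letters and not a measured binding site, and members without one lack only these letters in this window.

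Replication genes were among the brighter probes of the array. Their mean level over the 18 arrays lay between the 52.8th percentile of all genes (Rfc3, a small clamp loader subunit) and the 99.6th (Mcm6, a core subunit of the helicase). Mcm7 and Mcm4, also helicase subunits, lay at the 99.4th and 98.2nd, and Tk1, the thymidine salvage kinase, and Pold1, the catalytic subunit of polymerase delta, at the 98.6th. Cdc45, Pola2 and Gins2 were at the low end with Rfc3, between the 57.3rd and 60.2nd. Signal is set by each probe as well as by its RNA, so these ranks do not order the genes by RNA amount.

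The average of the members was first compared between arrays. The mean log2 value of the 35 members was 3.14, 3.12 and 2.70 in anti-DLL4 thymocytes, against 3.50, 3.99, 3.79 and 3.59 in control thymocytes. It was 3.71, 3.24 and 3.98 in anti-DLL4 DN cells, against 2.98, 4.17 and 4.62 in control DN cells. The DN1 arrays gave 3.14, 2.32 and 3.73 for anti-DLL4, against 2.49 and 3.38 with isotype control. The 3 anti-DLL4 thymocyte arrays were all below the 4 control ones, whereas the groups overlapped in DN and in DN1 cells. Relative to each array's median gene, the thymocyte groups overlapped as well, with 4.87 to 5.95 for anti-DLL4 arrays and 5.66 to 6.76 for control arrays.

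**Figure D1:**
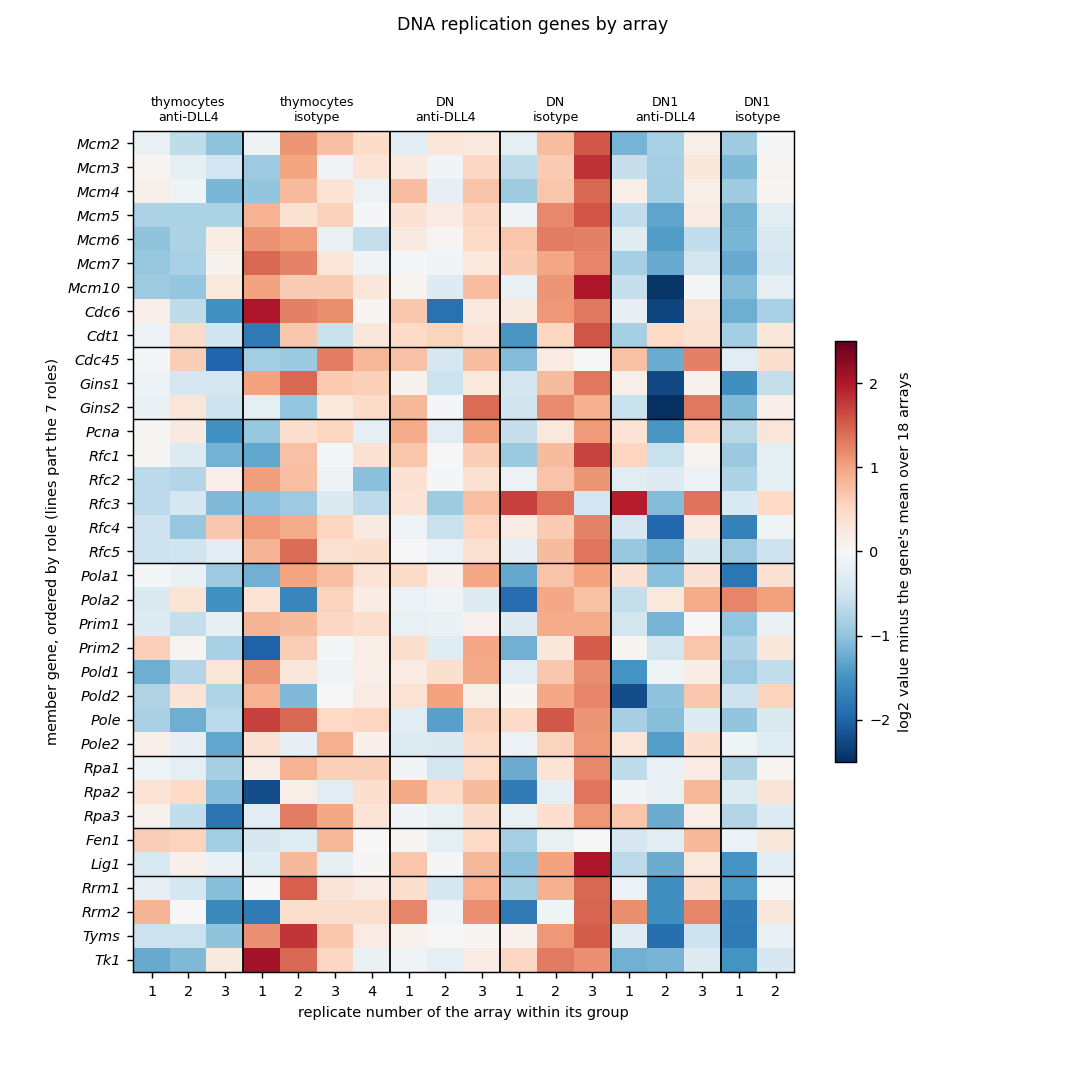
Log2 value of each member (rows, by role) in each array (columns, by group and replicate), minus the gene's mean over the 18 arrays; colours are capped at 2.5 in both directions. Control DN replicate 3 is the highest column of its group for 27 members and control DN replicate 1 the lowest for 34.

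Most members moved together from array to array. The correlation of a member with the mean of the other 34 over 18 arrays had a median of 0.744. It was highest for Rrm1, the large subunit of ribonucleotide reductase (0.967), Mcm5 (0.902) and Lig1, the ligase that seals Okazaki fragments (0.898), and lowest for Rfc3 (0.134) and Pola2, the accessory subunit of polymerase alpha (0.142). These arrays share scaling, slides and group structure, and the values are a description. Outside the list, Nasp, a histone chaperone used in S phase, had the highest correlation with the members' mean of 14012 genes compared (r = 0.95 over 18 arrays). It was followed by Got2 and Snrpd1 (0.927 each), Rcc1 (0.915), Trim37 (0.912), Hibadh (0.911), Cct5 (0.91), and Nudt21, Rasl2-9 and Rnaseh2b (0.906 each).

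On slide 3, and for DN1 cells on slide 5, arrays of different groups lay on the same side of their groups. Slide 3 carried 1 array each of the DN and DN1 groups, and in each of these 4 groups it was the array with the lowest member mean. The slide 3 array was the lowest of its group for 29 of 35 members in anti-DLL4 DN cells, 34 in control DN cells, 27 in DN1 cells with anti-DLL4 and 33 in those with isotype control. Slide 5 carried the highest array of both DN1 groups, for 26 members with anti-DLL4 and for 33 in controls. Slides 1 and 4 showed no such shared order. By member mean, slide 1 carried the highest anti-DLL4 thymocyte array (3.14) and the lowest control one (3.50). Slide 4 carried the lowest anti-DLL4 thymocyte array (2.70) and the highest anti-DLL4 DN array (3.98). Array strength also differed: the 75th percentile of processed signal ran from 260.2 (control DN replicate 1) to 4295.4 (anti-DLL4 thymocytes replicate 1), and control DN replicates 1 and 2 (260.2 and 337.9) were the dimmest of all 18. Results on control DN cells are therefore given with and without those arrays. Without them, control DN cells are represented by replicate 3 alone, which had the highest member mean of the 18 arrays (4.62). Values without the dim arrays thus rest on that 1 control DN array.

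**Figure D2:**
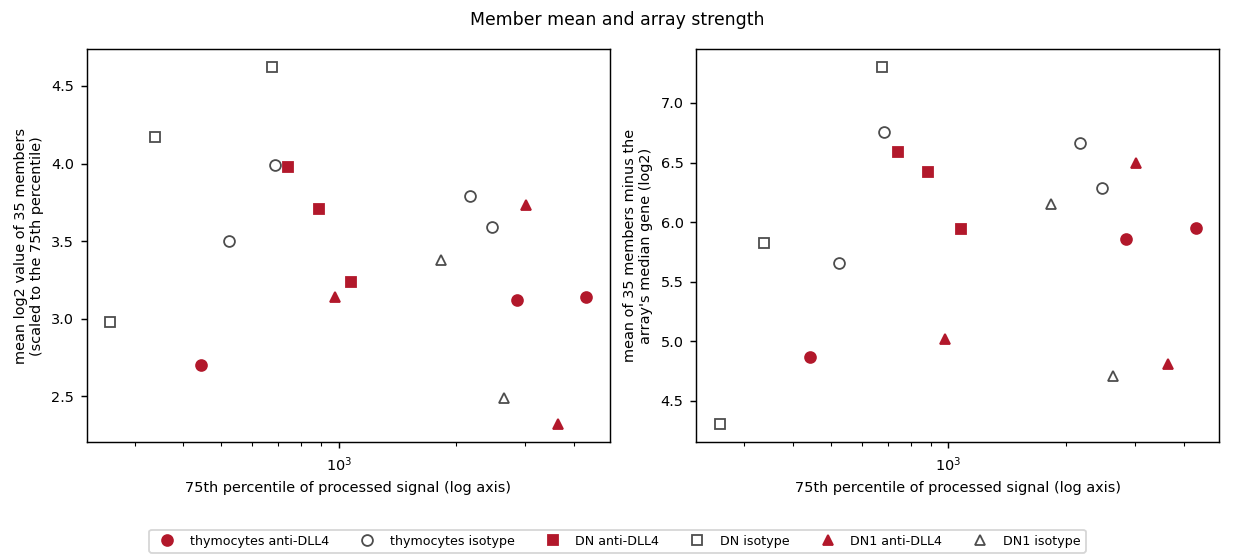
Mean log2 value of the 35 members in each array, scaled to the array's 75th percentile (left) or relative to its median gene (right), against the 75th percentile of processed signal on a log axis; filled symbols are anti-DLL4, open symbols isotype control, and shapes mark the population. The dimmest array, a control DN array, has the lowest value relative to the median gene (4.3), and another control DN array the highest (7.3).

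In total thymocytes of anti-DLL4 mice against controls, no replication gene passed the test. Differences are given on a scale where the median of all genes tested, itself at -0.47 before this shift, is 0. On that scale 21 of 35 members lay below 0 and 14 above, and the members' median log2 difference was -0.28, with a range from -1.47 to 0.88. At an adjusted p under 0.05 in limma's moderated test, 0 of 35 members were called, beside 1.51% of all 20918 genes. The lowest adjusted p was 0.0714. At an unadjusted p under 0.05, 10 members were lower (28.6%), beside 9.75% of all genes. The same number, 10, had groups that did not overlap, beside 9.64% of all genes. After each array was centred on its median gene the number was 11 (31.4%), beside 14.4%.

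The members furthest below 0 were Pole, Cdc6, Tk1 and Tyms. Pole, the catalytic subunit of the leading-strand polymerase epsilon, had log2 values of 3.35, 2.95 and 3.50 in anti-DLL4 thymocytes, against 5.87, 5.6, 4.66 and 4.71 in control thymocytes. All 3 anti-DLL4 arrays were below all 4 control arrays. The log2 difference was -1.47 ± 0.51 (SE), with a 95% interval of -2.56 to -0.37 and an adjusted p of 0.0714 in limma. It was the only member whose interval left out 0. A dimmer Pole probe gave 0.03, but it was well above background on only 8 arrays and could not check the difference.

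Tyms, the thymidylate synthase that makes dTMP, had 5.43, 5.43 and 4.96 with anti-DLL4, against 7.11, 7.76, 6.64 and 6.17 in controls. These groups did not overlap either, and the log2 difference was -1.17 ± 0.56 (SE; adjusted p = 0.158 in limma). Its other bright probes gave -1.31 and -1.27, and a dimmer one -0.85. Tk1, which makes dTMP from recycled thymidine, had 5.19, 5.35 and 6.69 with anti-DLL4, against 8.54, 7.88, 6.98 and 6.29 in controls. Here replicate 3 of the anti-DLL4 arrays lay within the control range. The difference was -1.21 ± 0.57 (SE; adjusted p = 0.159 in limma), and a second probe gave -1.22. Both subunits of ribonucleotide reductase, which makes deoxynucleotides from ribonucleotides, had wide intervals: Rrm1 differed by -0.61 (-2 to 0.77) and Rrm2 by 0.35 (-1.63 to 2.33).

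The 9 genes grouped under helicase loading and licensing were Mcm2 to Mcm7, Mcm10, Cdc6 and Cdt1. Of these, 6 were below the median of all genes and 3 above, with a median of -0.68. Mcm10, placed in this group and not with the helicase activators, differed by -0.71 (-2.05 to 0.64). Cdc6, the ATPase that loads MCM, had 1.02, 0.22 and -0.66 with anti-DLL4, against 2.88, 2.12, 2.02 and 0.90 in controls. Replicate 1 with anti-DLL4 was above control replicate 4, so the groups overlapped. The difference was -1.31 ± 0.74 (SE; adjusted p = 0.252 in limma). Mcm5 had nearly the same value in the anti-DLL4 arrays (2.67, 2.68 and 2.68), all below the control values of 4.33, 3.85, 4.04 and 3.42. It differed by -0.76 (interval -1.79 to 0.28), Mcm7 by -0.8 (-1.81 to 0.21) and Mcm2 by -0.68 (-1.78 to 0.41). Cdt1, the partner of Cdc6 in loading, was on the other side at 0.76 (-0.75 to 2.27), with Mcm3 at 0.17 and Mcm4 at 0.11.

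The remaining roles were centred nearer to 0. Among the helicase activators, Gins1 differed by -0.77, Cdc45 by -0.07 and Gins2 by 0.47, and the weaker Gins2 probe gave -0.67. The clamp and clamp loader had a median of -0.03: Pcna, the clamp, differed by 0.1, Rfc5 by -0.71, Rfc4 by -0.47 and Rfc3 by 0.49. A second, weaker probe of Rfc2 gave 1.25 where the brightest gave -0.1. Polymerases and primase had a median of -0.2, with the primase subunits Prim1 at -0.54 and Prim2 at 0.75, and the polymerase delta subunits Pold1 at -0.44 and Pold2 at 0.09. Of RPA, the complex that coats single-stranded DNA, Rpa3 differed by -0.87, Rpa1 by -0.47 and Rpa2 by 0.88. The flap endonuclease Fen1 and the ligase Lig1 differed by 0.54 and 0.24. None of these intervals left out 0.

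**Figure D3:**
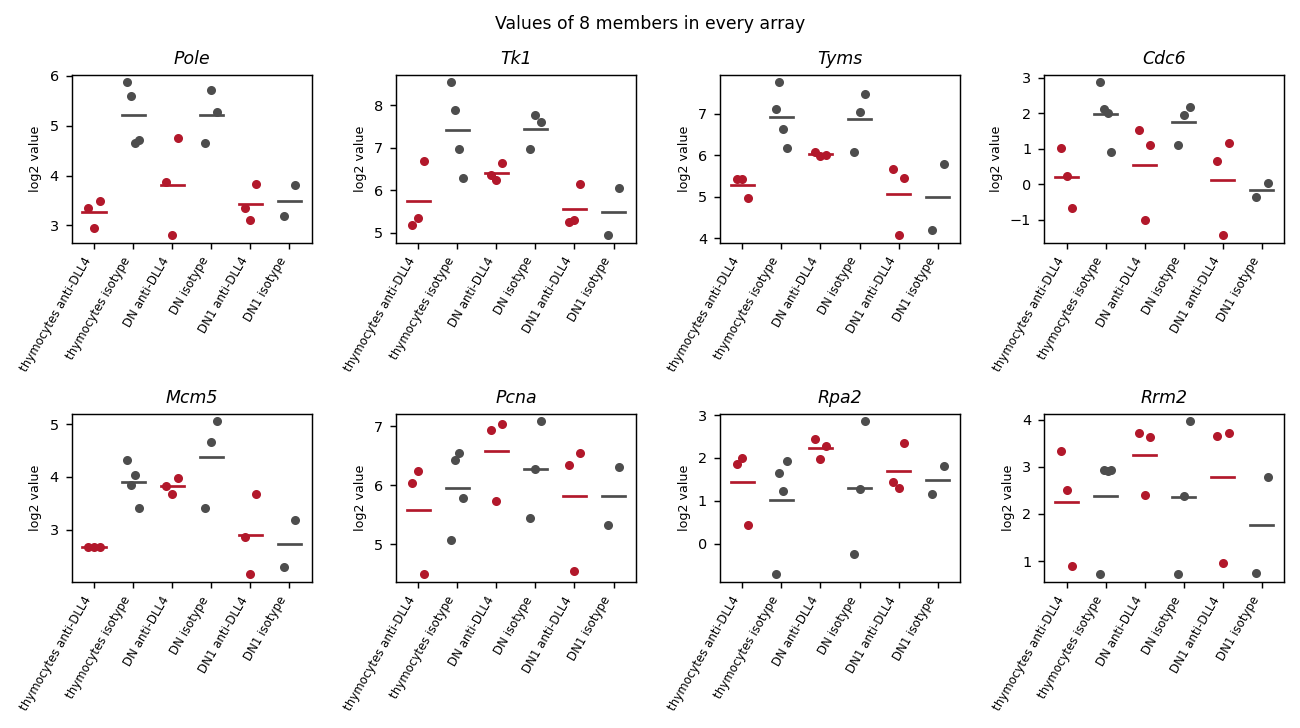
Log2 value of 8 members in every array (points) with group means (bars), anti-DLL4 in red and isotype control in grey. In thymocytes the anti-DLL4 points of Pole, Tyms and Mcm5 lie below all control points, those of Tk1, Cdc6, Pcna, Rpa2 and Rrm2 overlap them, and Rrm2 in control thymocytes has 1 low point at 0.72.

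The members' thymocyte difference depended on the arrays compared. Within slides, each with 1 array per antibody, the median was 1.08 on slide 1, -0.3 on slide 2 and -1.46 on slide 4. Without anti-DLL4 replicate 3 (75th percentile 442.8) it was 0.02. With normexp background it was -0.85. With array quality weights 10 members were called, all lower (Mcm2, Mcm5, Mcm7, Mcm10, Rfc5, Prim1, Pole, Rpa3, Tyms and Tk1), but that fit also called 17% of all genes. Pole, Tyms, Tk1, Cdc6, Mcm5 and Mcm7 were below 0 under all 32 alternatives. So were Mcm2, Mcm6, Mcm10, Gins1, Rfc4, Rfc5, Prim1, Pold1, Rpa3 and Rrm1, while Cdt1, Rfc3, Prim2 and Rpa2 were above 0 under all. The alternatives include fits without a DN or DN1 array, which could not change a thymocyte difference.

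Markers of other cell types differed between the thymocyte groups. In bulk RNA, fewer cells of a type and less RNA per cell cannot be told apart. The mean of 15 B-cell markers per array ran from 1.66 to 2.91 with anti-DLL4 and from -1.63 to -0.45 in controls, where Pax5, which specifies B cells, was never well above background. The mean of 10 T-lineage markers ran from 4.16 to 4.56 with anti-DLL4 and from 4.77 to 5.48 in controls. The mean of 7 genes of the CD4 and CD8 stage averaged 3.8 and 4.73, and that of 9 NK and innate lymphoid markers 2.33 and -0.87. Their part in the replication gene values was not tested.

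In DN cells, 26 of 35 members were above and 9 below the median of all genes, with a median log2 difference of 0.35 and none called, beside 4.31% of 20858 genes. The range was -0.72 to 1.63. Groups that did not overlap were found for 3 members, all lower (Mcm6, Mcm7 and Tk1; 8.57%), beside 22.8% of all genes. After median centring there were none, beside 15.4%. At an unadjusted p under 0.05, 1 member was lower (Pole), beside 22.7% of all genes. The direction of the median depended on which control arrays were used. Without control replicates 1 and 2, the dim ones, it was -0.79, with 31 members below 0. Without control replicate 1 alone it was -0.33, without replicate 2 alone 0.23, and without replicate 3 alone 0.73. With quantile normalization it was -0.22, and on slide 3, with 1 array of each antibody, 1.24. Control replicate 3, the only one left in the first of these fits, was assumed to vary like the other groups.

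Pole was again the lowest member. Its log2 values in DN cells were 3.88, 2.81 and 4.75 with anti-DLL4, against 4.65, 5.71 and 5.27 in controls. Replicate 3 with anti-DLL4 lay just inside the control range. The difference was -0.72 ± 0.55 (SE; adjusted p = 0.116 in limma), and -1.1 without the dim control arrays. It was below 0 under all 32 alternatives, as in thymocytes, but fits without a thymocyte or DN1 array could not change it. The dimmer Pole probe gave -2.48 here, against 0.03 in thymocytes. That probe was well above background on only 8 arrays, so its values could not check those of the brightest probe. Tk1 had 6.35, 6.23 and 6.64 with anti-DLL4, against 6.97, 7.76 and 7.60 in controls. The groups did not overlap on this scale but did after median centring, and the difference was -0.36 (-1.66 to 0.94). The second Tk1 probe was on the other side of 0 here, at 0.2.

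The largest differences above 0 in DN cells were those of Rpa2 and Rrm2. Rpa2, the RPA subunit phosphorylated at stressed forks, had 2.45, 1.98 and 2.29 with anti-DLL4, against -0.24, 1.27 and 2.85 in controls. The 3 anti-DLL4 values lay inside the control range. The difference was 1.63 (-0.05 to 3.3), its second probe gave 1.77, and without the dim control arrays it was -0.25. Rrm2, the small subunit of ribonucleotide reductase, which is made in S phase, had 3.71, 2.41 and 3.64 with anti-DLL4, against 0.72, 2.39 and 3.96 in controls. Its difference was 1.57 (-0.55 to 3.69), and -0.36 without the dim control arrays. Fen1 was at 1.11 (-0.04 to 2.27), and at 0.45 without them. The MCM subunits lay between -0.22 (Mcm7) and 0.69 (Mcm4), and Pcna at 0.98 (-0.51 to 2.47).

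Array quality weights called 9 members in DN cells, 8 lower and 1 higher (Rpa2), in a fit that called 57.5% of all genes. Cell markers moved strongly here. The mean of 15 B-cell markers ran from 4.22 to 4.68 with anti-DLL4 and from 0.22 to 0.57 in controls, and that of the 7 genes of the CD4 and CD8 stage from -0.38 to 0.25 and from 2.14 to 2.63. The T-lineage mean was 2.92 with anti-DLL4 and 4.55 in controls. The part of these cells in the members' values was not tested.

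DN1 cells gave no call among the members, beside 0.0956% of 21957 genes, and no member reached an unadjusted p under 0.05. The median log2 difference was 0.17, with 26 members above and 9 below the median of all genes. The range ran from -0.92 (Pola2) to 1.02 (Rrm2). The 95% intervals reached a median of 1.53 to either side of the estimate, so a difference of the size seen for Pole in thymocytes was not detectable for most members with 3 against 2 arrays. Rrm2 had 3.65, 0.96 and 3.72 with anti-DLL4, against 0.75 and 2.78 in controls, and each antibody had its low value on slide 3. Pole had 3.34, 3.11 and 3.84 with anti-DLL4, against 3.19 and 3.81 in controls, a difference of -0.06 (-1.37 to 1.25). Pola2 was the 1 member whose groups did not overlap (2.86%), being lower with anti-DLL4, beside 8.88% of all genes.

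Within slides the DN1 medians were 0.18 on slide 3 and 0.4 on slide 5, with 24 and 33 members above 0. Leaving out anti-DLL4 replicate 3 moved the median to -0.25, and leaving out control replicate 1 to -0.32. The B-cell marker mean lay between 4.22 and 4.32 in anti-DLL4 arrays and between 3.15 and 4.16 in control arrays. The T-lineage mean lay between 1.27 and 2.49 in anti-DLL4 arrays and between 3.63 and 4.32 in control arrays. The part of these differences in the members' values was not tested.

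**Figure D4:**
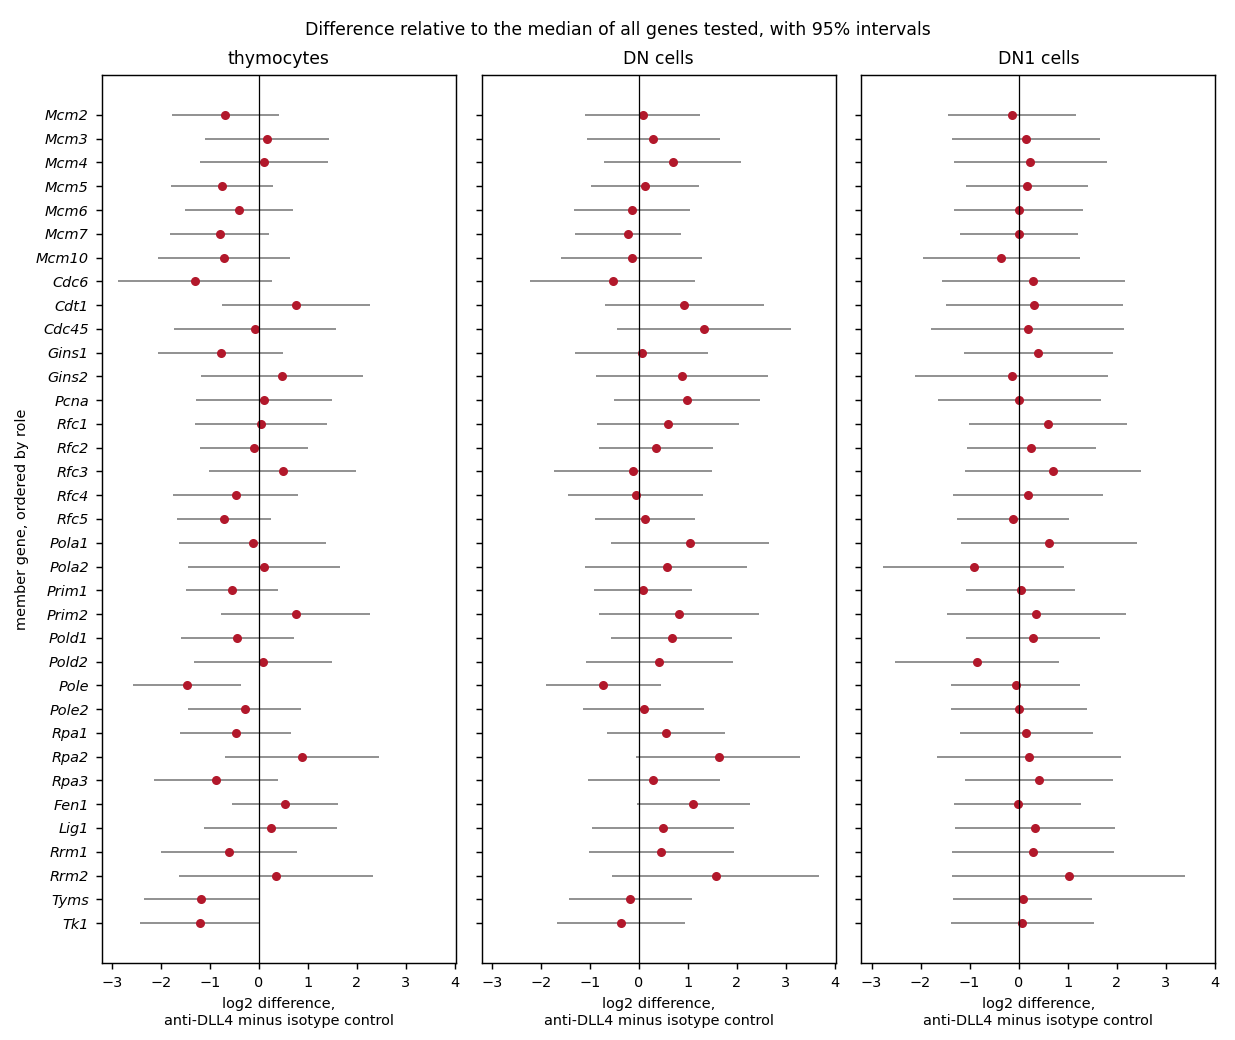
Log2 difference, anti-DLL4 minus isotype control, of each member (points) with its 95% interval (lines), relative to the median of all genes tested, in thymocytes, DN cells and DN1 cells. Only the interval of Pole in thymocytes leaves out 0, and points lie mostly left of 0 for Tyms and Tk1 in thymocytes and close to 0 in DN1 cells.

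The antibody's effect was also compared between populations. No member was called in any of the 3 differences of effects, beside 0.0224% (DN minus thymocytes), 0.119% (DN1 minus thymocytes) and 0.212% (DN1 minus DN) of the genes tested. For DN minus thymocytes the median was 0.76, with 34 members above 0 and Rfc3 below. With quantile normalization it was -0.04, with 19 members below 0. Without the dim control DN arrays it was -0.26, and without control DN replicate 3 it was 1.33. For DN1 minus thymocytes it was 0.56. For DN1 minus DN it was -0.14, but 0.88 without the dim control DN arrays. With quantile normalization the DN1 minus DN median was 0.51, and without control DN replicate 3 it was -0.76. These differences share the thymocyte, DN or DN1 arrays with one another.

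Among control samples, DN cells did not differ from thymocytes in any member that passed the test, beside 1.28% of 21633 genes. The median log2 difference was -0.21, with 23 members below and 12 above the median of all genes. Without the dim DN arrays it was 0.96, with 1 member below 0, and with normexp background it was -1.05, with 34 below 0. With no filter on dim genes it was -0.47, and without control DN replicate 3 it was -0.62. Quantile normalization gave 0.45, with 3 members below 0. Control DN replicate 3 and control thymocytes replicate 4, the pair on slide 6, gave 0.77. At an unadjusted p under 0.05, 1 member was higher (Rfc3), beside 13.1% of all genes. Rfc3 differed by 1.24 (-0.26 to 2.74; adjusted p = 0.214 in limma) and had -0.59, -0.95 and -2.78 in control DN cells, against -3.35, -3.20, -2.66 and -2.96 in control thymocytes. Its high values were those of the dim arrays, and without these the difference was 0.35. Array quality weights called Mcm6 and Rfc3 higher, in a fit that called 43.8% of all genes. Both array groups of this and the next comparison also enter the antibody comparisons above.

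In control DN1 cells against control DN cells, 24 members lay below the median of all genes (-0.78 before the shift) and 11 above, with a median of -0.31 and none called, beside 1.36% of 21737 genes. At an unadjusted p under 0.05, 11 members were lower (31.4%), beside 15% of all genes. Groups did not overlap for 14 lower members (40%), beside 26.5%, but for none of these after median centring, beside 20.4%. Tk1 had 4.95 and 6.05 in DN1 cells, against 6.97, 7.76 and 7.60 in DN cells, a difference of -1.16 (-2.62 to 0.29). Tyms was at -1.09, Cdc6 at -1.13, Mcm6 at -1.06 and Mcm7 at -1.01. Mcm7 had the lowest adjusted p, 0.146 in limma. Cell markers differed here too. The B-cell marker mean was 3.66 in control DN1 and 0.42 in control DN cells. The NK and innate lymphoid mean was 1.63 and -1.14, the monocyte and macrophage mean 1.27 and -2.01, and the T-lineage mean 3.98 and 4.55. The part of these cells in the members' values was not tested.

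Pola2 stood on the other side in DN1 against DN cells, as the 1 member with higher values that did not overlap, beside 11.5% of all genes. It had -0.36 and -0.56 in control DN1 cells, against -3.50, -0.63 and -0.85 in control DN cells, and differed by 1.98 (0.13 to 3.83). Its adjusted p was 0.393 in limma, and without the dim arrays the difference was 0.75. For all members the median was -1.5 without the dim arrays, 0.11 without control DN replicate 3, 0.28 on slide 3 and 0.01 on slide 5. Array quality weights called 19 members, all lower, in a fit that called 42.8% of all genes.

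**Figure D5:**
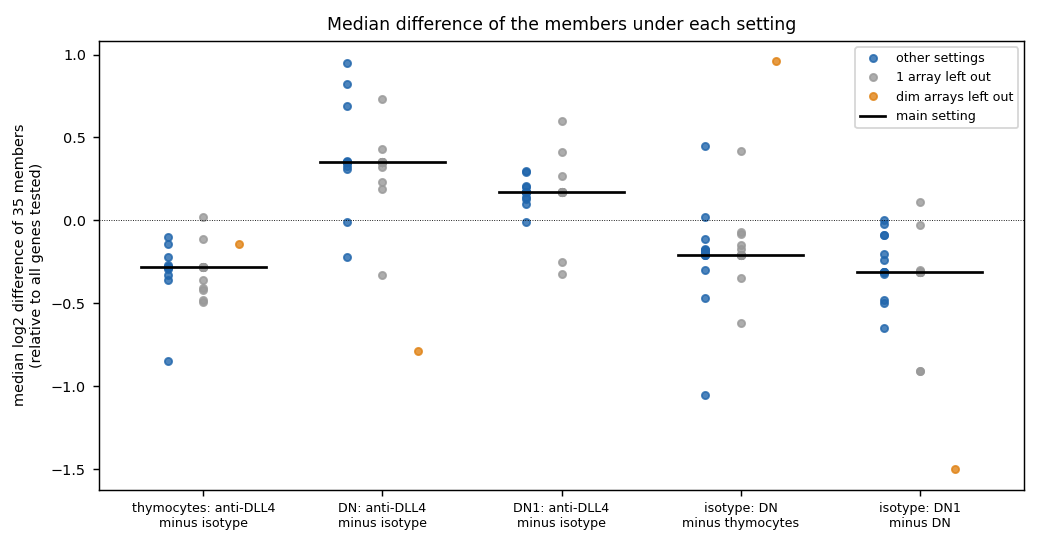
Median log2 difference of the 35 members in 5 comparisons (columns) under each way of processing: black bars are the values reported, blue points other normalizations, filters and models, grey points fits without 1 array, orange points fits without the dim arrays. The thymocyte median stays at or below 0.02 in every setting, while the DN medians change sign when dim control DN arrays are left out.

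The neighbours of these genes in the pathway were read from 5 further lists of 73 genes, 72 of them measured. Apart from 1 gene, none passed the test in any of the 8 comparisons. That gene was Samhd1, a triphosphohydrolase that breaks down deoxynucleotides and so acts against the synthesis enzymes. It was called in thymocytes, in DN cells and in control DN1 against DN cells, beside 1.51%, 4.31% and 1.36% of all genes. In thymocytes it had log2 values of 2.81, 3.36 and 2.29 with anti-DLL4, against -1, 0.02, 0.8 and 1.14 in controls. The groups did not overlap, and Samhd1 rose by 3.05 ± 0.57 on the log2 scale (SE; adjusted p = 0.0355 in limma). The call was lost in 10 of 32 alternatives, 7 of them fits without 1 array, with adjusted p-values up to 0.208. The 7 arrays were anti-DLL4 thymocytes replicates 1 and 2, control thymocytes replicates 1, 2 and 3, and anti-DLL4 DN replicates 1 and 3, and without each the adjusted p in limma lay between 0.0526 and 0.166.

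In DN cells Samhd1 had 3.07, 2.60 and 3.20 with anti-DLL4, against -2.02, -2.59 and -1.03 in controls. It rose by 5.51 ± 0.61 (SE; adjusted p = 0.000419 in limma), and it stayed past the threshold under all 32 alternatives. Without the dim control arrays the rise was 4.34 (adjusted p = 0.0489 in limma). In DN1 cells it had 2.58, 3.84 and 3.17 with anti-DLL4, against 3.46 and 2.60 in controls, and the groups overlapped. Control DN1 cells were higher than control DN cells by 5.69 ± 0.69 (SE; adjusted p = 0.00422 in limma). That call was lost in 3 of 33 alternatives, 1 of them without control DN1 replicate 1 (adjusted p = 0.102 in limma), with adjusted p-values up to 0.239 (0.101 without the dim arrays). Samhd1 and the B-cell marker mean were both higher with anti-DLL4 in thymocytes and in DN cells. Between control DN cells and control thymocytes they went opposite ways. Samhd1 ran from -2.59 to -1.03 in control DN cells and from -1 to 1.14 in control thymocytes. The B-cell mean was 0.42 and -1.02 in these groups. Both were higher in control DN1 cells than in control DN cells, with B-cell means of 3.66 and 0.42. Means of NK, dendritic and monocyte markers were also higher in anti-DLL4 DN cells (1.58, -0.38 and -0.08) than in control ones (-1.14, -2.07 and -2.01). The part of any cell type in the Samhd1 values was not tested.

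The origin recognition and licensing list (10 genes) had a median of -0.11 in anti-DLL4 against control thymocytes, the fork partners (15) -0.62, further nucleotide synthesis (13) 0.22, replication-coupled chromatin (9) -0.13, and E2F, RB and G1/S control (25) 0.15. In DN cells the same medians were 0.71, 0.36, 0.23, 0.73 and 0.77, and in DN1 cells 0.37, -0.17, -0.1, 0.39 and 0.33. In thymocytes the fork partners were below 0 for 10 of 15 genes, the same side as most members, and the other lists were split more evenly.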

How the data were processed

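RNA of each sample was amplified in 2 rounds and labelled with Cy3, per the labels' protocols, and read on 1-colour Agilent arrays of 44954 spots. The deposited spot intensity was extracted with Agilent Feature Extraction (version 9.5 in the submitters' processing notes). It had its background subtracted and was not normalized between arrays, per the file headers. The other deposited columns used were the mean and local background intensity and flags of 0 or 1. The authors also deposited ratio values for 43225 probes, without naming their scale, centring or direction. For the 35 members, all 630 log2 ratios matched the scanner values minus each gene's median over the 18 arrays to within 0.05 (largest difference 0.02), so direction and centring are settled for them. The medians of the ratio columns were 0.638, 0.68 and 1.01 (anti-DLL4 thymocytes), 1.11, 0.999, 0.864 and 0.866 (control thymocytes), 0.814, 0.741 and 0.889 (anti-DLL4 DN), 1.42, 1.21 and 0.953 (control DN), 0.989, 0.652 and 0.729 (anti-DLL4 DN1), and 0.874 and 0.799 (control DN1).

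Processed signals were put on the log2 scale, each array's 75th percentile (control spots left out) was subtracted, and the brightest probe stood for each gene. Outlier spots were left out. Genes entered a comparison when 2 or more of its arrays had them well above background. The 6 groups shared a single fit in limma 3.58.1 (lmFit, eBayes) under R 4.3.3 with the data.table package (1.17.8), and calls needed an adjusted p under 0.05 (Benjamini-Hochberg). All p-values are two-sided. Differences are printed relative to the median of all genes tested, which was -0.47 in thymocytes, -0.68 in DN, -0.01 in DN1, 0.36 in control DN against thymocytes, -0.78 in control DN1 against DN, and -0.34, 0.45 and 0.64 in the differences of effects. The p-values come from the unshifted values. The number of arrays limits the precision. The fit was tested on simulated data.

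The members, lists and tests were chosen with earlier results of these data known. All members, the called genes of the 5 pathway lists and the 10 genes most like the members are named; the 4 printed promoters are an exception chosen after the values were seen. Control thymocytes number 3 in the study's description and 4 in the labels, and all were used. With no sample tied to an animal, p-values measure only the spread between samples. Alternatives covered background, normalization, filters, probes, slide, replicate numbers, array weights, the deposited ratios, and leaving out arrays.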

Additional observations from a re-analysis of the deposited data

Results flagged for a closer look

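Rrm2, the small subunit of ribonucleotide reductase, had a log2 value of 0.72 in control thymocytes replicate 1, far from the other 3 control thymocyte samples, which lay at 2.90, 2.93 and 2.94. The gap was 0.979 of the group's whole range. The test was made on 36 values (the members and their mean) in this 1 group of 4 samples, and chance alone marks about 1 in 20 such values. The same array had the lowest value of its group for 16 of 35 members and a 75th percentile of 524, the lowest of the control thymocyte arrays.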

How the results depend on the processing

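No member was called under any of the alternatives except array quality weights, where the members called were 10 in thymocytes, 9 in DN cells, 2 in control DN against thymocytes (Mcm6 and Rfc3, higher) and 19 in control DN1 against DN cells. The calls over all genes rose in those fits to 17%, 57.5%, 43.8% and 42.8%; control DN replicate 2, the second dimmest array, carried the highest weight (11.1). The members' median moved by more than the spread between replicates with normexp background (-0.85 in thymocytes and 1.97 for the effect in DN less that in thymocytes) and without both dim control DN arrays (-0.79 in DN cells, 0.96 in control DN against thymocytes and -0.26 for the effect in DN less that in thymocytes). The cause was not tested. Without the 3 thymocyte arrays whose 75th percentile was under 700, a setting chosen after seeing the data, the thymocyte median was -0.14. With 1 array left out at a time, the median ran from -0.49 to 0.02 in thymocytes, -0.33 to 0.73 in DN, -0.32 to 0.6 in DN1, -0.62 to 0.42 in control DN against thymocytes, -0.91 to 0.11 in control DN1 against DN, and, between populations' effects, 0.26 to 1.33 for DN less thymocytes, 0 to 0.88 for DN1 less thymocytes and -0.76 to 0.36 for DN1 less DN. Same-numbered samples correlated between -0.235 and 0.388 in their deviations from group means. With 2 to 4 samples per group and no unmatched pairs for comparison, these correlations cannot decide whether the numbers pair the samples. Thymocyte samples 1, 2 and 3 of both antibodies lay on slides 1, 2 and 4. With the replicate number as a block the medians were -0.36 in thymocytes, 0.35 in DN and -0.01 in DN1. They were -0.18 in control DN against thymocytes and -0.2 in control DN1 against DN, with 0 members called. All-gene calls in DN1 were then 5 higher and 1 lower. Over all genes, calls in thymocytes were 235 higher and 81 lower, against 99 and 8 when only the arrays compared were fitted. In DN cells they were 573 and 327, against 1329 and 4486 without control replicate 3 and 128 and 5 without the dim arrays. All members were well above background on every array.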
